A study of Mus musculus with 405 samples.

Results

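The genes examined here encode 7 subunits of the GABA-A receptor: Gabra2, Gabra3, Gabra4 and Gabra5 (alpha subunits), Gabrb1 and Gabrb2 (beta subunits) and Gabrg1 (a gamma subunit). They were found by gene symbol. All 7 were among the 13304 genes of the expression table of a chemical screen and among the 23893 genes of a count table for the fungicide pyraclostrobin.

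The GABA-A receptor is the main fast inhibitory receptor of the cortex, a pentamer that opens a chloride channel when it binds GABA. Most receptors combine alpha, beta and gamma subunits, and the choice of subunits sets where the receptor sits and how it responds. The alpha2, alpha3 and alpha5 subunits are prominent in the developing cortex. Receptors with alpha4 or alpha5 often lie outside synapses. The beta subunits form part of the GABA binding site, and the gamma subunits link receptors to synaptic scaffolds. Several insecticides in the screen act on this receptor or on its insect relatives.

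The study asked how single chemicals, mostly pesticides, change the transcriptome of cortical neurons. By the labels, cultures came from embryos at day 15 (the study's methods give a slightly earlier stage) of C57BL/6J dams mated with CAST/EiJ males, so all groups shared this hybrid strain and the antimitotic agents added to the medium. On day 7 in vitro the cultures received 1 chemical or vehicle (DMSO) for 24 h, and RNA of the mixed cultures was sequenced. The screen table held 49 vehicle libraries and 344 libraries of 297 chemicals, of which 32 were topotecan at 0.3 μM. For 282 chemicals there was 1 library each. The groups compared with vehicle were topotecan, the chloride channel blockers endosulfan (10 μM), lindane (10 μM) and fipronil (1 μM), the macrocyclic lactones emamectin benzoate and milbemectin (both 1 μM), and pyraclostrobin (0.1 μM). The screen values are log2 deviations from the median of each gene over all libraries, so they give no expression levels and their sequencing depth is unknown. The pyraclostrobin table held raw counts of 4 treated and 4 vehicle libraries with totals of 2409623 to 7833440. Markers of neurons (Rbfox3, Map2, Tubb3, Syn1 and Snap25) summed to 5523 to 5679 CPM (read counts scaled to the size of each library by TMM) in its vehicle libraries. Markers of astrocytes summed to 664 to 1009 CPM there, and those of microglia to 15.2 to 21.8 CPM. The labels do not say whether replicate libraries came from separate cultures, and p-values may then measure technical spread. For pyraclostrobin, a figure legend of the study gives fewer biological replicates than the 4 libraries per group.

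The 7 genes lie in 4 chromosomal clusters of subunit genes. In the mm9 build used by the authors, chromosome 5 carried Gabrg1 (chr5:71142286-71233856, minus strand), Gabra2 (chr5:71352296-71487088, minus strand), Gabra4 (chr5:71960973-72049547, minus strand) and Gabrb1 (chr5:72091171-72529628, plus strand). This cluster spanned 1387 kb, and no other measured gene lay within it. Gabra5 (chr7:64663060-64765379, minus strand) lay beside Gabrg3, which was also measured. Gabrb2 (chr11:42233259-42446092, plus strand) closed a cluster that also holds Gabra6. Gabra3 (chrX:69678020-69902187, minus strand) lay between Gabre and Gabrq. Gene lengths ranged from 88.6 kb for Gabra4 to 438 kb for Gabrb1, with 224 kb for Gabra3 and 213 kb for Gabrb2. The expression values cover the exons of each whole gene.

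The promoters of Gabra4 and Gabrb1 are shown as the divergent pair of the chromosome 5 cluster, and those of Gabra3 and Gabrg1 as the windows with the fewest CpG dinucleotides. They are the 250 bases before the RefSeq transcription start, taken from the GRCm38.p6 table and placed on mm9 by an exact match of the sequence. By the gene positions above, Gabra4 and Gabrb1 are neighbours that point away from each other, with 41.6 kb between them. RefSeq also has a Gabrb1 start inside Gabra4, described below, whose window is not shown. Capitals mark matches to the SP1 site GGGCGG on either strand. They also mark the TATA box, searched as TATAAA. The remaining capitals are matches to the CCAAT box, searched by those letters. In these windows no match overlaps another.
Gabra4, chr5:72049548-72049797, minus strand: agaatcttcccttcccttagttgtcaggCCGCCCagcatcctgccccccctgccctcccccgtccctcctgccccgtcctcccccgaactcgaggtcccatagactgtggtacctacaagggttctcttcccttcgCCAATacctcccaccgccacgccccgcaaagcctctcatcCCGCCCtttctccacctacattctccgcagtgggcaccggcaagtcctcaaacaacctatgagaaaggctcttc
Gabrb1, chr5:72090921-72091170, plus strand: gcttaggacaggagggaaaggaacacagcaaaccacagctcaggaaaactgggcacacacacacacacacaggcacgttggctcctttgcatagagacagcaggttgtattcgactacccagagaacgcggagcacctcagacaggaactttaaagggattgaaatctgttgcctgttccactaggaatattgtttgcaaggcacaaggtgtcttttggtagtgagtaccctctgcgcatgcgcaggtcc
Gabra3, chrX:69902259-69902508, minus strand: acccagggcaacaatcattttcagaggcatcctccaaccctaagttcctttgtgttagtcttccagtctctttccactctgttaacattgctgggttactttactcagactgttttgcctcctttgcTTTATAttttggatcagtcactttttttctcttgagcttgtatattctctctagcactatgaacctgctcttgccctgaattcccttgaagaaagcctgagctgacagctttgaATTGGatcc
Gabrg1, chr5:71233857-71234106, minus strand: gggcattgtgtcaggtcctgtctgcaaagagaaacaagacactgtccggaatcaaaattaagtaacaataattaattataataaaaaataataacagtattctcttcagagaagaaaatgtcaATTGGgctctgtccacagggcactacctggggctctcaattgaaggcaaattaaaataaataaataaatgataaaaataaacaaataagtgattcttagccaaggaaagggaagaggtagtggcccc

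RefSeq listed 11 starts for the 7 genes. The windows differed in base composition. That of Gabra4 was 61.2% G or C with 12 CpG dinucleotides, and that of Gabra2 was 70.0% with 18. The Gabrb1 window shown was 50.8% with 6 CpG. The Gabra3 window was 42.4% with 0 CpG, and the Gabrg1 window 35.6% with 1. Over all 32851 windows of the table the median was 52.4% with 6 CpG. An SP1 site was found in 3 of the 11 windows (32.7% of all windows), a TATA box in 3 (12.4%) and a CCAAT box in 7 (33.85%). The 2 Gabra3 windows overlap and share a TATA box and a CCAAT box, so that these are counted for both starts. The cAMP response element TGACGTCA (1.55% of all windows), the AP-1 site TGANTCA (6.75%) and the EGR site GCGTGGGCG (0.536%) were in none of the 11. The second Gabrb1 start in RefSeq, whose window was 64.4% G or C with 18 CpG, is at chr5:72049160. It lies 387 bases inside Gabra4 on the opposite strand. Reads from the transcripts that overlap there could not be told apart without strand.

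In untreated cultures Gabra5 was the most abundant of the 7 genes. Levels were compared as CPM per kb of annotated exon, as mean ± SD of the 4 vehicle libraries of the pyraclostrobin table. They were 71.3 ± 6.63 for Gabra5, 36.3 ± 10.8 for Gabrb2, 36.3 ± 7.32 for Gabra2 and 20.55 ± 1.42 for Gabra3. Gabra4 followed at 18.6 ± 3.43, Gabrb1 at 6.39 ± 3.46 and Gabrg1 at 5.86 ± 1.41 CPM per kb. The libraries of Gabra5 lay above those of every other member. Gabrb2 and Gabra2 overlapped, as did Gabra3 with Gabra4 and Gabrb1 with Gabrg1. The lowest library of Gabrb2 (20.3 CPM per kb) also lay within the ranges of Gabra3 and Gabra4. The libraries of Gabra2 lay above those of Gabra3 (26.2 against 21.8 CPM per kb at the nearest libraries), and those of Gabra4 above those of Gabrb1 (14 against 10.1). Gabra6, Gabre, Gabrp and the rho subunit genes Gabrr1, Gabrr2 and Gabrr3 had under 10 counts in all 8 libraries together. The scale depends on the annotated exons, which come to 2392 bases for Gabra2 and 9922 for Gabrb2.

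Gabrb1 varied most among the screen libraries. Its SD over the 393 libraries was 0.48 on the log2 scale, and those of the others lay between 0.19 for Gabrb2 and 0.27 for Gabrg1. Gabrb1 was the only member among the 5121 genes (38.5%) whose SD exceeded 0.1 on the log10 scale, the set from which the study drew its clusters of chemicals.

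Topotecan, an inhibitor of topoisomerase 1, lowered 4 of the 7 genes, raised 1 and left 2 that did not pass the test. Gabrb1, Gabrb2, Gabra2 and Gabra5 fell, and Gabrg1 rose. Over all 13304 genes 45.8% passed limma's test at an adjusted p below 0.05, 20.9% as lower and 24.9% as higher. No member had all topotecan libraries below every vehicle library, a pattern held by 1.01% of all genes. The median difference of the 7 members was -0.27, against 0.03 for all genes. In bulk samples, fewer cells of a type and less RNA per cell cannot be told apart.

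Gabrb1 deviated from its median by -1.10 to 0.75 in the vehicle libraries (median -0.03) and by -2.53 to -0.38 in the topotecan libraries (median -1.02). All 32 topotecan libraries lay below the vehicle median, and 11 lay below the lowest vehicle library. That limit was set by vehicle replicate 37, and without it 25 of 32 lay below every vehicle library (lowest -0.70). The groups overlapped in both cases. The difference was -1.05 ± 0.09 (SE; limma, adjusted p = 1.67e-16), a 2.06-fold fall.

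Gabrb2 had the tightest vehicle libraries, -0.24 to 0.38 (median -0.03), and its topotecan libraries ranged from -0.95 to -0.13 (median -0.41). Here 28 of 32 topotecan libraries lay below the lowest vehicle library. The fall was smaller than that of Gabrb1 but better separated, at -0.38 ± 0.03 (SE; limma, adjusted p = 9.42e-18).

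Gabra2 ranged from -0.41 to 0.43 in vehicle (median 0.00) and from -1.10 to 0.06 with topotecan (median -0.24), a difference of -0.31 ± 0.04 (SE; limma, adjusted p = 3.25e-09). Gabra5 ranged from -0.47 to 0.29 in vehicle (median 0.02) and from -0.69 to -0.01 with topotecan (median -0.29), a difference of -0.27 ± 0.04 (SE; limma, adjusted p = 3.84e-08). All 32 topotecan libraries lay below the vehicle median for Gabra5, and 31 did so for Gabra2. Below the lowest vehicle library were 5 for Gabra5 and 8 for Gabra2, or 15 for Gabra2 without vehicle replicate 39. The groups overlapped for both genes.

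Gabrg1, which lies beside Gabra2 on chromosome 5, moved the other way. It ranged from -0.64 to 0.73 in vehicle (median -0.02) and from -0.53 to 0.75 with topotecan (median 0.25). The difference was 0.27 ± 0.07 (SE; limma, adjusted p = 0.0010), and 7 of 32 topotecan libraries lay below the vehicle median.

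Gabra3 and Gabra4 did not pass. Gabra3 had a difference of 0.02 ± 0.04 (SE; 95% interval -0.05 to 0.10; limma, adjusted p = 0.646) and Gabra4 one of -0.02 ± 0.04 (SE; 95% interval -0.11 to 0.07; limma, adjusted p = 0.718). Against the libraries of other chemicals instead of vehicle, Gabra3 was 0.11 higher (adjusted p = 0.0113).

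**Figure D1:**
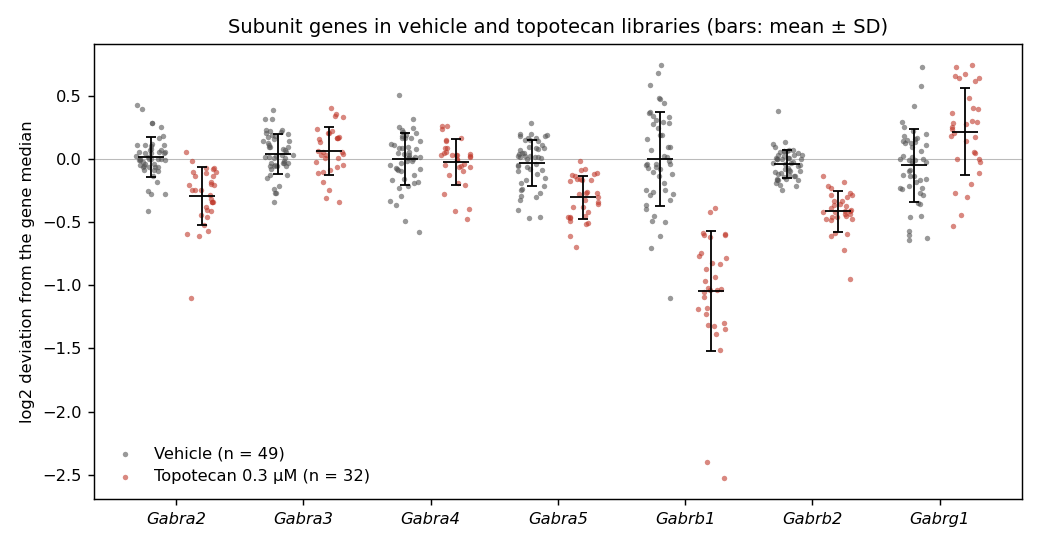
Log2 deviation from the gene median (vertical axis) of the 7 subunit genes in 49 vehicle libraries (grey) and 32 topotecan libraries (red). Each point is 1 library and the bars give mean ± SD. Gabrb1 drops furthest, Gabrb2 is the best separated, Gabrg1 lies higher with topotecan, and Gabra3 and Gabra4 overlap fully.

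Topoisomerase 1 inhibitors are known to lower long genes, and the members were set beside genes of their length. Among 512 measured genes of 200 to 400 kb the median difference was -0.41, and 78.9% fell. Gabrb2, with its -0.38, lay near that median. Gabra3 is of the same length class, and its 0.02 lay above the 90th percentile of the class (-0.01). Among 285 genes over 400 kb the median was -0.88, and Gabrb1 lay at -1.05. Gabra2 and Gabra5 lay below the median of -0.14 for 1135 genes of 100 to 200 kb. Gabra4 lay at the median of -0.02 for 1799 genes of 50 to 100 kb, and Gabrg1 lay above the 90th percentile of that class (0.21). In order along chromosome 5 the genes were higher (Gabrg1), lower (Gabra2), not called (Gabra4) and lower (Gabrb1). The nearest measured genes on each side were Gnpda2, 1159 kb from the cluster, and Commd8, 18.6 kb from it. They differed by 0.13 ± 0.08 and 0.10 ± 0.03 (SE; limma, adjusted p = 0.161 and 0.0112).

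**Figure D2:**
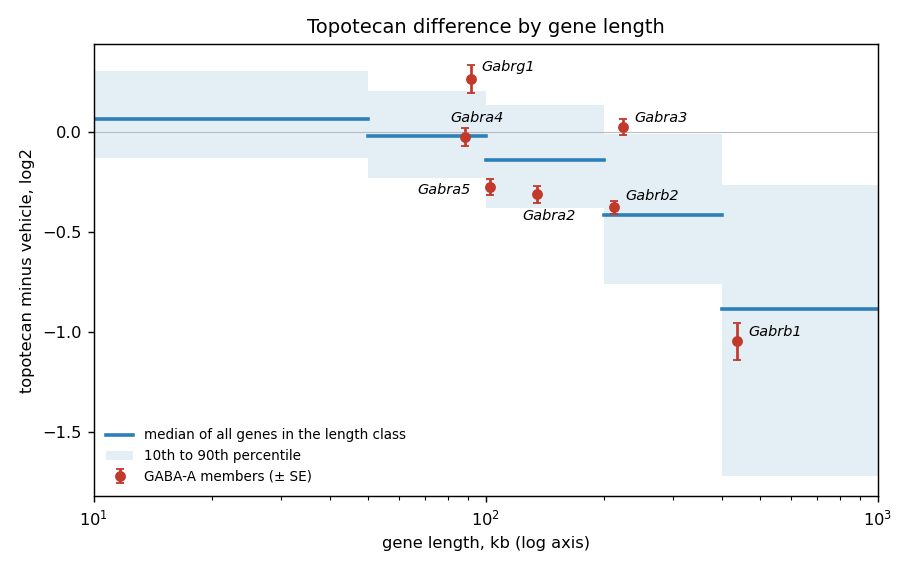
Topotecan minus vehicle difference on the log2 scale (vertical axis) against gene length in kb (log axis) for the 7 members (red), each with its SE. Blue lines are the medians of all genes in each length class, and the bands run from the 10th to the 90th percentile. Gabra3 and Gabrg1 lie above the bands of their classes, and Gabrb1 lies near the median of genes over 400 kb.

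Camptothecin and irinotecan, the other inhibitors of topoisomerase 1, had 1 library each, and their values are given without a test. With camptothecin at 0.3 μM, the concentration of topotecan, Gabrb1 stood at -1.48, Gabra5 at -0.72, Gabra2 at -0.59 and Gabrb2 at -0.58. These 4 of the 7 members lay below the lowest vehicle library, as did 8.64% of all genes. Another 6.01% of all genes lay above the highest. Gabrg1 stood at 0.38, Gabra3 at -0.09 and Gabra4 at -0.28, within the vehicle range. With irinotecan at 10 μM all 7 genes were within the vehicle range, with Gabrb1 at -0.28, Gabrb2 at -0.12 and Gabrg1 at 0.46. Of all genes 3.05% lay below that range with irinotecan and 1.01% above it.

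Other genes of the GABA system also changed with topotecan. Gabrg3, a gamma subunit gene, fell (-0.95 ± 0.13, SE; adjusted p = 5.37e-09), as did Gabrd, the delta subunit gene (-0.29 ± 0.10, SE; adjusted p = 0.0133). Of 16 genes for receptor clustering and trafficking 7 fell and 5 rose, and Gphn, which encodes the scaffold gephyrin, fell by 0.96 (SE 0.06; adjusted p = 1.05e-24). Gad2 (-0.62 ± 0.07, SE) and Gad1 (-0.50 ± 0.06, SE), which encode the enzymes that make GABA, both fell. Of 5 GABA-B receptor genes 3 fell, led by Gabbr2 (-0.70 ± 0.05, SE). Slc12a5, the chloride exporter of mature neurons, rose by 0.18 (SE 0.03; adjusted p = 6.10e-06). In the same libraries 5 of 5 pan-neuronal markers fell (median -0.31), 4 of 4 excitatory neuron markers rose (median 0.31) and 5 of 6 astrocyte markers fell (median -0.46). Their part in the results was not tested.

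The study assigned 34 chemicals to 6 clusters from the expression of the variable genes in these same libraries. Gabrb1 was part of that set and the other 6 members were not, but the libraries are the same, so the following values are a description without a test. Each chemical entered as the median of its libraries, and differences are from the vehicle median.

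Cluster 2 holds inhibitors of mitochondrial complex I (rotenone, pyridaben and fenpyroximate) and complex III (pyraclostrobin, trifloxystrobin, fenamidone and famoxadone) beside the herbicide oxyfluorfen. Gabra3 was lower in all 8 chemicals, by 0.27 with famoxadone to 0.94 with trifloxystrobin, and 7 of 8 lay below the lowest vehicle library. In single chemicals 2.36% (rotenone) to 11.8% (fenpyroximate) of all genes lay below that limit. The share of genes below it in 7 of 8 was not counted. Gabra2 and Gabra4 were below the vehicle median in all 8 as well, at medians of -0.17 and -0.16. Some values were close to vehicle: Gabra2 with rotenone (-0.02), pyraclostrobin (-0.02) and trifloxystrobin (-0.03), and Gabra4 with rotenone (-0.03). Values below the vehicle median in all 8 chemicals were held by 3 of the 7 members and by 15.3% of all genes. Gabrb2 was lower in 7 of 8 chemicals (median -0.23) and Gabrb1 was higher in 6 of 8 (median 0.24). Rotenone had 2 libraries that disagreed for Gabra3, with deviations of -0.77 and 0.01, while those of fenamidone were -0.64 and -0.56. The rotenone libraries also disagreed for Gabra2 (-0.37 and 0.34) and Gabra4 (-0.18 and 0.15). Pan-neuronal markers were lower in this cluster by a median of 0.60 (5 of 5 genes), and astrocyte markers were higher by 0.52 (6 of 6 genes). Their part was not tested.

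Cluster 6 (azinphos-methyl, boscalid, cyhalofop-butyl, fosthiazate, methidathion, metsulfuron and thiophanate) had low beta subunit genes. Gabrb2 lay below the lowest vehicle library in all 7 chemicals, at a median of -0.34 from vehicle. In single chemicals 5.17% (cyhalofop-butyl) to 10.2% (metsulfuron) of all genes lay below that limit. The share of genes below it in all 7 was not counted. Gabrb1 was below the vehicle median in all 7, from -0.17 with methidathion to -1.48 with boscalid. Values below vehicle in all 7 chemicals were held by 2 of the 7 members and by 14.4% of all genes, and values above it in all 7 by 0 members and 9.73%. Gabra2 was lower in 6 of 7 (median -0.36). Gabra3 (median 0.02) and Gabra5 (median -0.01) were near vehicle. Pan-neuronal markers differed by a median of -0.08 there and astrocyte markers by -0.21 (4 of 6 lower), and their part was not tested.

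Clusters 1 and 3 had higher Gabra4, Gabra5 and Gabrb1. In cluster 1, which includes the pyrethroids fenpropathrin and cyfluthrin, these 3 genes and Gabrg1 were above the vehicle median in all 7 chemicals. The medians were 0.48 for Gabrb1, 0.35 for Gabra4, 0.31 for Gabra5 and 0.19 for Gabrg1. That is 4 of the 7 members, against 7.08% of all genes. Gabra3 went the other way and was lower in all 7 (median -0.27), a direction held by 8.49% of all genes. In cluster 3, Gabra4 (0.31), Gabra5 (0.31), Gabrb1 (0.49) and Gabrb2 (0.15) were above the vehicle median in all 5 chemicals, again 4 of the 7 members and 8.94% of all genes (7.54% were below in all 5, and no member). Gabra3 was near vehicle there (median -0.03). Astrocyte markers had a median of -0.38 in cluster 3 (5 of 6 lower) and microglia markers one of -0.80 (2 of 3 lower). In cluster 1 astrocyte markers had a median of -0.16 (4 of 6 lower) and excitatory neuron markers one of -0.11 (4 of 4 lower). Their part was not tested. In cluster 4 Gabra3 was higher in all 4 chemicals (median 0.27; 12.7% of all genes) and Gabra4 lower in all 4 (median -0.13; 10.8% of all genes). Cluster 5 is topotecan, camptothecin and irinotecan. There 4 members were below the vehicle median in all 3 chemicals (25.1% of all genes) and Gabrg1 was above it (27.9%). In cluster 4 pan-neuronal markers had a median of 0.12 (0 of 5 lower) and microglia markers one of -0.38 (2 of 3 lower).

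**Figure D3:**
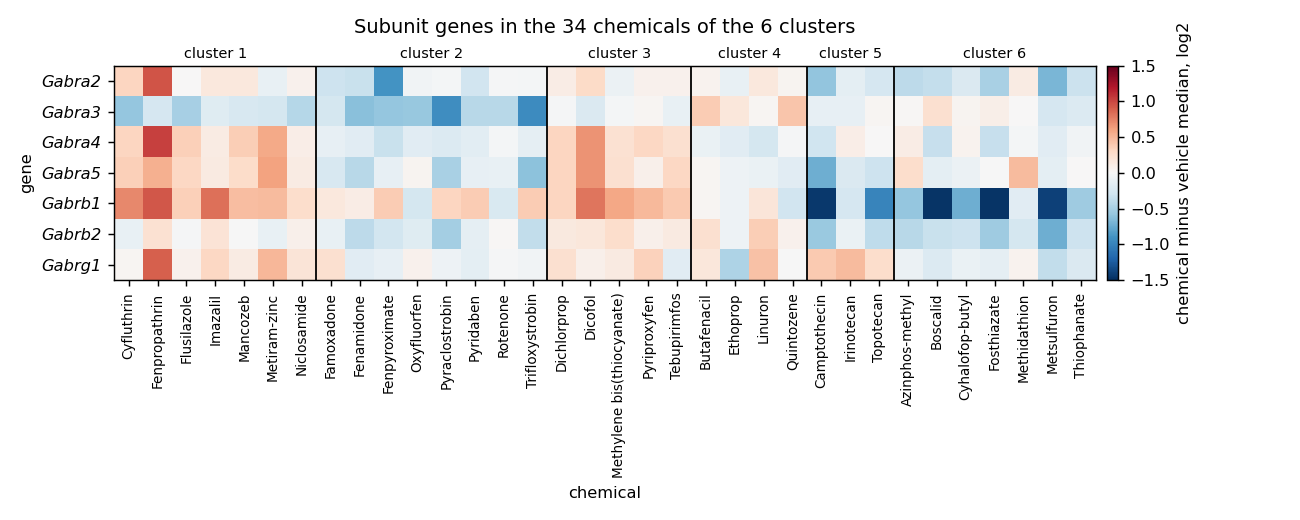
Difference from the vehicle median on the log2 scale (colour, red higher and blue lower) of the 7 subunit genes (rows) in the 34 chemicals of the 6 clusters (columns). Gabrb1 is lowest in clusters 5 and 6 and high in clusters 1 and 3, and Gabra3 is low in cluster 2 and in cluster 1.

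Insecticides that act on GABA-gated chloride channels were then examined. Endosulfan, lindane and fipronil block the pore. As a group of 3 libraries they gave no call among the 7 genes by limma, and 0.0% of all 13304 genes were called. At an unadjusted p below 0.05 there were 914 genes, Gabra2 among them, and without the variance trend limma called 0 genes as well. Gabra2 was 0.20 ± 0.09 higher (SE; 95% interval 0.02 to 0.39; limma, adjusted p = 0.668), and each of the 3 chemicals lay above the vehicle median. Gabrb1 differed by 0.19 ± 0.22 (SE; 95% interval -0.24 to 0.62), and a fall of the size seen with topotecan lay outside that interval. Gabra3 had deviations of 0.35 with endosulfan, 0.16 with fipronil and -0.58 with lindane, and the last lay below every vehicle library. Fipronil was used at a lower concentration than the others.

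Emamectin benzoate and milbemectin act on chloride channels gated by ligands. Both were used at 1 μM. None of the 7 genes was called for the pair, against 2.23% of all genes (1.74% as lower). All 7 differences were negative, as were those of 6903 of all 13304 genes. Without emamectin benzoate those of Gabra5 (0.37) and Gabrb1 (0.22) were positive. At an unadjusted p below 0.05 there were 3 of the 7 members and 1668 of all 13304 genes. Gabra4 was 0.49 ± 0.15 lower (SE; 95% interval -0.79 to -0.18; limma, adjusted p = 0.0866), Gabrg1 0.48 ± 0.21 lower (adjusted p = 0.275) and Gabrb2 0.20 ± 0.09 lower (adjusted p = 0.290). With 1 library each, the difference between the compounds could not be tested. Gabra4 stood at -0.81 with emamectin benzoate and -0.16 with milbemectin, and Gabra5 at -0.54 and 0.35. Gabrg1 stood at -0.53 with both. With emamectin benzoate alone Gabra4 passed at -0.81 ± 0.21 (SE; limma with 1 library, which assumes that it varies like vehicle; adjusted p = 0.0139), where 583 of all genes passed. Cell type markers were examined in the same libraries. Tubb3, a neuronal tubulin, fell (-0.73 ± 0.12, SE; limma, adjusted p = 1.32e-04), the only one of 5 pan-neuronal markers called (median -0.13). None of 6 astrocyte markers was called (median 0.18), with 5 positive differences and 1 negative. Their part in the values of the subunit genes was not tested.

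Pyraclostrobin, a fungicide that blocks mitochondrial complex III, lowered Gabra3, Gabra5 and Gabra4 in the count data. These were 3 of the 7 members, and 9.22% of all 12324 tested genes fell (21.3% passed in either direction; edgeR, adjusted p below 0.01). Values are CPM, in the order of the library pairs numbered 428, 702, 703 and 704. The treated library of pair 428 is also the screen's pyraclostrobin library, and the vehicle libraries of pairs 703 and 704 were deeper than the rest (7833440 and 7082405 counts).

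Gabra3 had 74.5, 85.2, 85.4 and 77.3 CPM with vehicle and 31.8, 39.8, 36.1 and 48.2 CPM with pyraclostrobin. No treated library reached the lowest vehicle library. The fall was -1.05 ± 0.15 (SE; edgeR, adjusted p = 3.55e-04), or 2.07-fold.

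Gabra5 had 174.4, 214.5, 181.2 and 186.7 CPM with vehicle and 79.3, 113.1, 100.1 and 114.5 CPM with pyraclostrobin. These groups too were apart, at -0.89 ± 0.14 (SE; edgeR, adjusted p = 6.69e-04), or 1.86-fold. Gabra4 had 57.8, 89.9, 74.5 and 84.6 CPM with vehicle and 46.7, 54.9, 43.8 and 48.97 CPM with pyraclostrobin. The groups did not overlap, and the difference was -0.66 ± 0.16 (SE; edgeR, adjusted p = 0.0075). Non-overlap with lower treated values was found for these 3 of 7 members and for 16.9% of all tested genes.

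Gabrb2 had 201.5, 438.3, 395.6 and 405.5 CPM with vehicle and 208.8, 253.6, 198.3 and 272.5 CPM with pyraclostrobin. The vehicle library of pair 428 fell among the treated ones, and the difference did not pass (-0.63 ± 0.22, SE; edgeR, adjusted p = 0.0436). Without that vehicle library it was -0.82 (adjusted p = 1.80e-04). Gabrb1 had 5.35, 21.02, 21.4 and 31.2 CPM with vehicle and 23.6, 12.8, 14.1 and 18.6 CPM with pyraclostrobin. The same vehicle library was the lowest of all 8, from 15 counts, and the difference was -0.24 ± 0.40 (SE; edgeR, adjusted p = 0.688). Without the whole pair 428 it was -0.72 (edgeR, adjusted p = 0.0063), the only setting in which Gabrb1 was called. Without the vehicle library of pair 428 alone it was -0.53 (edgeR, adjusted p = 0.0787). Without that of pair 704 it was 0.08 (edgeR, adjusted p = 0.901).

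Gabra2 and Gabrg1 did not pass. Gabra2 averaged 86.8 ± 17.5 CPM with vehicle and 88.6 ± 10.9 CPM with pyraclostrobin (SD, n = 4), a difference of 0.03 ± 0.16 (SE). Gabrg1 averaged 27.95 ± 6.73 and 22.7 ± 5.18 CPM (SD, n = 4), a difference of -0.31 ± 0.23 (SE). Both groups overlapped.

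Leaving out 1 library at a time kept Gabra3 and Gabra5 called in all 8 cases. Gabra4 lost its call in 7 of 8 (adjusted p from 0.0112 to 0.0278) and kept it without the vehicle library of pair 428 (adjusted p = 2.90e-04). In the other 3 pairs, without both libraries of pair 428, 5 of the 7 members were called. These were Gabra3 (-0.99), Gabra5 (-0.82), Gabra4 (-0.74), Gabrb2 (-0.77) and Gabrb1 (-0.72). That fit called 4874 of 12441 tested genes, 2418 of them as lower.

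**Figure D4:**
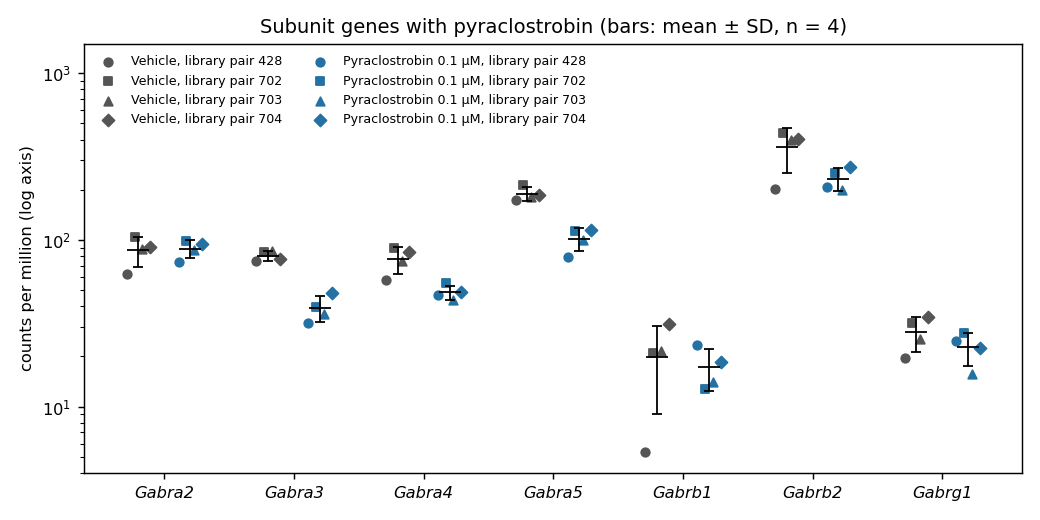
CPM after TMM scaling (vertical log axis) of the 7 subunit genes in 4 vehicle libraries (grey) and 4 pyraclostrobin libraries (blue). Symbols mark the library pairs and bars give mean ± SD. Gabra3, Gabra4 and Gabra5 are apart, and the vehicle library of pair 428 is the lowest vehicle value of all 7 genes.

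Other genes of the GABA system also changed with pyraclostrobin. The median difference was -0.63 for the 7 members and -0.0021 for all tested genes. The delta subunit gene Gabrd fell (-1.60 ± 0.32, SE; edgeR, adjusted p = 0.0026). Of 5 GABA-B receptor genes 2 fell, among them Gabbr1 by 0.91 (SE 0.15; edgeR, adjusted p = 9.39e-04). Of 16 clustering and trafficking genes 3 fell, among them Nlgn2 (-0.70 ± 0.15, SE), which encodes an adhesion protein of inhibitory synapses, and Plcl1 rose (0.79 ± 0.15, SE). The chloride exporter gene Slc12a5 fell by 1.21 (SE 0.18) while the importer gene Slc12a2 rose by 0.69 (SE 0.16).

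Cell type markers moved with the treatment. Pan-neuronal markers summed to 2339 to 2986 CPM with pyraclostrobin, against 5523 to 5679 CPM with vehicle, and 5 of 5 fell (median -1.18). Microglia markers summed to 57.3 to 93.6 CPM against 15.2 to 21.8 CPM, and 5 of 5 tested rose. Astrocyte markers summed to 983 to 3334 CPM against 664 to 1009 CPM, with 1 of 6 called as higher. Oligodendrocyte lineage markers summed to 161.5 to 278.6 CPM against 61.9 to 162.3 CPM, interneuron markers to 64.4 to 393.7 CPM against 331 to 565 CPM, and excitatory neuron markers to 476.5 to 551 CPM against 765 to 934 CPM. Vascular markers summed to 10.3 to 19.4 CPM against 3.37 to 4.64 CPM, with Cldn5 at 0 in all libraries. Their part in the falls of the subunit genes was not tested.

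Among single chemicals of the screen, fenpropathrin at 10 μM stood highest for the members. It was the highest of the 297 chemicals for Gabra4 (1.05), Gabra2 (0.95), Gabrb1 (0.90) and Gabrg1 (0.88), and Gabra5 (0.56) was also above every vehicle library. In this library 5 of 7 members lay above the vehicle range, against 5.32% of all genes. Gabra3 was at -0.22. Metiram-zinc and cyfluthrin followed by the median over the members.

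The lowest medians over the members came from camptothecin, cyproconazole and metsulfuron. With cyproconazole at 1 μM, a chemical outside the clusters, 3 of 7 members lay below every vehicle library (6.40% of all genes), namely Gabra2 (-0.62), Gabrb2 (-0.44) and Gabra3 (-0.35). The lowest deviations of single genes were -1.51 with boscalid and -1.499 with fosthiazate for Gabrb1, -0.91 with trifloxystrobin and -0.90 with pyraclostrobin for Gabra3, and -0.90 with fenpyroximate for Gabra2. Emamectin benzoate and esfenvalerate (-0.59) were lowest for Gabra4, camptothecin and trifloxystrobin (-0.60) for Gabra5, metsulfuron (-0.76) and camptothecin for Gabrb2, and fenoxycarb (-0.81) and fenamiphos (-0.65) for Gabrg1. Each of these was 1 library.

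The number of chemicals outside the vehicle range depended on the single vehicle library that set each limit. Gabrb2 lay below the lowest vehicle library in 25 chemicals and above the highest in 0. Without vehicle replicate 15, which set the upper limit, 30 lay above. Gabra3 was below in 20 and above in 3, or 35 without vehicle replicate 15 and 7 without vehicle replicate 45. Gabra5 was below in 3 and above in 17, or in 41 without vehicle replicate 1. For the average gene 2.69% of chemicals lay below and 2.07% above. Gabrg1 was below in 2 and above in 1.

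Across the 297 chemicals the members moved together only in part. The values are Pearson's r over the medians of the chemicals and describe libraries that share cultures and normalization. The highest were 0.56 between Gabra2 and Gabrb2, 0.54 between Gabra4 and Gabra5, and 0.53 between Gabrb1 and Gabrb2, all on different chromosomes. The 6 pairs on chromosome 5 had a median r of 0.34 (0.23 to 0.42), and the 15 pairs on different chromosomes had a median of 0.32. Gabra3 had an r of 0.26 with Gabrb2, -0.21 with Gabrb1 and 0.01 to 0.11 with the rest. In the 263 chemicals outside the clusters the 3 highest pairs had r of 0.46, 0.45 and 0.45. In the 49 vehicle libraries the median over all 21 pairs was 0.12.

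**Figure D5:**
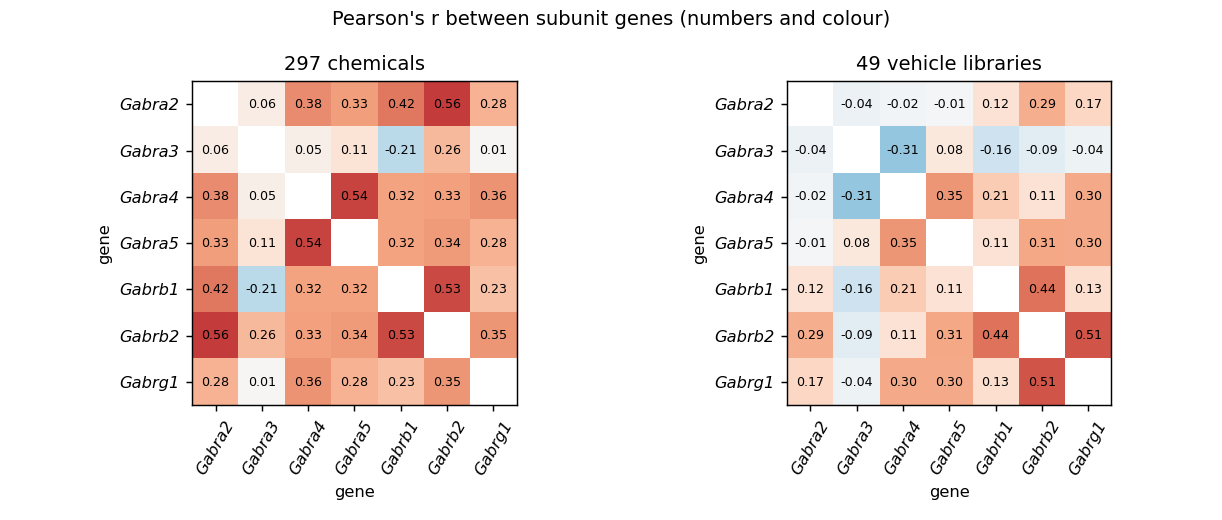
Pearson's r between the 7 subunit genes over 297 chemicals (left) and over 49 vehicle libraries (right), printed in each cell and shown by colour. The row of Gabra3 is near 0 in the chemicals apart from 0.26 with Gabrb2 and -0.21 with Gabrb1, and most pairs are weaker in the vehicle libraries.

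The genes most like each member were ranked by Pearson's r over the 297 chemicals. Gabrb2 had the closest partners, with r of 0.81 for Slc8a1 (a sodium-calcium exchanger), 0.77 for Hecw1 and 0.76 for Fut9, and 3.20% of all genes had an r above 0.5 with it. Gabrb1 was most like Ncam2 (0.65), Tenm1 (0.65) and Pcdh7 (0.63), which encode adhesion proteins. Gabra3 was most like Pgm2l1 (0.61), Stmn2 (0.61), a regulator of neuronal microtubules, and Sv2b (0.60), a synaptic vesicle protein. Gabra5 was most like Gm9962 (0.69), A830018L16Rik (0.68) and Atp1b1 (0.67), the beta subunit of the sodium pump. Gabra4 was most like Kcnj3 (0.56), a potassium channel, Atp1b1 (0.56) and Omg (0.55). Gabra2 was most like Rab3c (0.61), Pcdh17 (0.59) and Pak3 (0.59). Gabrg1 had few such genes, with Syt4 at 0.56, Gnai1 at 0.48 and Cd200 at 0.46.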

How the data were processed

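Polyadenylated RNA of mouse cortical cultures was sequenced by the authors, who, per the labels, used TopHat and the mm9 genome. Reads were counted by the authors over exons of RefSeq genes joined by symbol. The pyraclostrobin table was deposited as raw counts. The screen table was deposited on a log10 scale. By the study's methods, it keeps only genes above a minimum length with nonzero RPKM in most samples. No further filter on level and no pseudocount was applied here. Its RPKM values were normalized by quantiles, centred on each gene's median and corrected for batch by a mixed model. Batch effects can therefore no longer be examined. The normalization steps also remove differences in total RNA.

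Each sample's group came from its label. The 6 columns of a table of sulforaphane with fenamidone share 1 name and were not used, so that planned comparison was not run. Cluster membership and its naming came from the study.

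Screen values were converted to log2 and tested with limma 3.58.1 (variance trend, Benjamini-Hochberg over 13304 genes, threshold 0.05) in R 4.3.3. Counts were tested with edgeR 4.0.16 (quasi-likelihood, TMM, genes reaching 10 counts in 4 or more libraries, threshold 0.01). All tests were two-sided and were checked on simulated data. DESeq2 1.42.0, other filters, size factors, references and thresholds, permutation tests with 100000 resamples and the removal of libraries were alternatives. Correlations used Python 3.11.15, numpy 2.4.6 and pandas 2.3.3. Positions came from the Gencode annotation of mm9, which held all 7 members. Library totals of 2409623 to 7833440 leave genes of a few CPM imprecise.

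Members and gene lists were chosen with earlier results of these data known. Genes named were the members, up to 4 called genes of each list by smallest adjusted p, the 3 genes most like each member, and the chemicals with the 2 highest and 2 lowest values per member. Some genes of the lists are not reported here. A chemical counts as outside the vehicle range when it lies beyond every vehicle library.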

Additional observations from a re-analysis of the deposited data

Results flagged for a closer look

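In 4 of 56 groups of 4 to 10 values, 1 value lay apart from the others by Dixon's test, and chance alone flags about 1 in 20 groups. Gabra2 in the chemicals of cluster 1 was highest with fenpropathrin, at a log2 deviation of 0.946, where the next chemical had 0.33. Gabra2 in cluster 2 was lowest with fenpyroximate, at -0.8966, where the next had -0.33. Gabra4 in cluster 3 was highest with dicofol, at 0.6968, where the next had 0.35. Gabrb2 was lowest in the vehicle library of pair 428 of the pyraclostrobin experiment, at 7.655 log2 CPM, where the other vehicle libraries had 8.63 to 8.78. The first 3 are single libraries of 1 chemical, and the last changes the call of Gabrb2 as given above. No cause was tested.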

How the results depend on the processing

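No called value changed sign. Values that had not passed did. Without lindane, the channel blocker differences of Gabra3 (0.21), Gabrg1 (0.08) and Gabrb1 (-0.01) turned. Without emamectin benzoate, those of Gabra5 (0.37) and Gabrb1 (0.22) with the lactones turned. Against other chemicals, Gabra3 with the blockers (0.02) and Gabrb1 with the lactones (0.01) turned. With pyraclostrobin, Gabra2 turned in several settings, among them no filter (-0.07) and removal of the vehicle library of pair 428 (-0.09). Gabrb1 turned without the vehicle library of pair 704 (0.08). With topotecan, 1788 genes passed when only the variable genes were tested, and 1 member, since only Gabrb1 is among them. With the channel blockers, 1 gene passed among the variable genes and 0 to 3 with 1 chemical left out. With the lactones, 112 genes passed against other chemicals, 111 at a threshold of 0.01, 4 among the variable genes, and 10 to 583 with 1 chemical left out, where 0 to 1 members passed (10 genes and 0 members without emamectin benzoate, 583 and 1 without milbemectin). With pyraclostrobin, 4301 genes passed at a threshold of 0.05, and 4874 genes and 5 members without pair 428. With 1 library left out, 1682 (vehicle of pair 703) to 4052 (vehicle of pair 428) passed. DESeq2 called 3365, relative log expression size factors 2650 and no filter 3000, with 3 members each. A lone library of a chemical was assumed to vary like vehicle.

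The replicate block was fitted for pyraclostrobin and called 3135 genes and the same 3 members. The library numbers may pair the libraries, and the study describes matched vehicle controls. The correlations of same-numbered libraries were 0.376, 0.102, -0.029 and 0.161, and 1 of 4 vehicle libraries correlated best with its own number. With so few libraries these values cannot decide the pairing. For the screen no block was fitted, since the labels do not tie a chemical library to a vehicle library. The sulforaphane comparison was not run, since its columns share 1 name. Leaving out the vehicle library that sets a limit of the vehicle range was added after seeing the data. All 84 alternatives for the clusters moved by less than the spread between chemicals, and 8 of 63 for the correlations moved further, all in the vehicle libraries. Depth limits Gabrb1, at 15 counts in 1 library, most.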

Other observations

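Libraries of the same chemical give a measure of the error of the single-library values. Leaving topotecan aside, 14 chemicals had repeat libraries. Over these, the range between repeat libraries had a median of 0.14 for Gabra4, 0.16 for Gabrb2, 0.24 for Gabra2, Gabra3 and Gabra5, and 0.28 for Gabrb1 and Gabrg1 on the log2 scale. The largest range was 1.38, for Gabrb1 in the 4 libraries of diethyltoluamide. For Gabra3 the largest was 0.91.

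Of 7 measured genes nearest to the subunit clusters that were tested with pyraclostrobin, 2 passed, against 21.3% of all tested genes. Gnpda2, 1159 kb from the chromosome 5 cluster, rose by 1.54 (SE 0.27; edgeR, adjusted p = 0.0012). Ccng1, 1155 kb from the chromosome 11 cluster, rose by 2.14 (SE 0.16; edgeR, adjusted p = 9.12e-06). Atp10a had a difference of 1.27 ± 0.37 (SE), Prrg3 one of 0.27 ± 0.13, Commd8 one of 0.11 ± 0.16, Slu7 one of 0.10 ± 0.16 and Cetn2 one of -0.28 ± 0.26. These were not compared with the members by a test.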
